A study of Mus musculus with 48 samples.

Results

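The iron and heme handling genes examined here were the 9 mouse genes Hmox1, Fth1, Ftl1, Slc40a1, Trf, Tfrc, Slc11a1, Hebp1 and Blvrb. They were taken by symbol, and all 9 were listed in both deposited count tables, among 20300 genes for a mix of glioma, myeloid and lymphoid cells and among 14363 genes for sorted CD11b+ myeloid cells. The study names Hebp1 and Trf among ligands enriched in its CD11b+ cells after the P-selectin axis was perturbed. Their direction between its groups is therefore not independent evidence.

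Macrophages that take up heme open its ring with heme oxygenase, reduce the biliverdin that results, and keep the freed iron in ferritin, a shell of heavy and light chains, or release it through ferroportin. Transferrin carries iron in blood and in brain fluid, and cells take it up with the transferrin receptor. In the brain, oligodendrocytes are a main source of transferrin and capillary endothelial cells carry the receptor. Iron regulatory proteins bind hairpins in the untranslated ends of several of these mRNAs, so that iron also acts on translation and on mRNA decay.

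The study asked how P-selectin, an adhesion receptor encoded by Selp, shapes the immune cells of a glioma. GL261 cells, a mouse glioma line, carried an shRNA against Selp (shSELP) or a negative control shRNA (shNC) and grew in the brains of C57BL/6 mice whose own cells kept Selp. Single cells were sequenced from the 3′ ends of their RNA in droplets, and each count is a unique molecule (UMI). For the mix, equal parts of CD11b+ cells, of CD45+ cells without CD11b and of all other cells were combined, with 2 libraries from shNC and 2 from shSELP tumors, on day 16 after injection by the labels and on day 17 by the methods. For the other experiment, CD11b+ cells alone were taken on day 21 by the labels and on day 17 by the methods, with 1 shNC and 1 shSELP library. The methods give male mice that were 6 weeks old and pools of 3 brains per group. It was not stated if each of the 2 libraries had a pool of its own, so their spread may not include that between animals.

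The mix held 2289 cells with 22945972 UMIs in shNC library 1 and 2297 cells with 22626413 UMIs in shNC library 2, with medians of 9015 and 7579 UMIs per cell. Its shSELP libraries 1 and 2 held 2293 cells each, with 17398121 and 25589350 UMIs and medians of 5887 and 9388. The CD11b+ libraries held 2862 cells each, where the methods state 3300 per group, with 12628177 UMIs for shNC and 11445676 for shSELP and medians of 4032 and 3685. Levels are given as CPM, a gene's UMIs over all UMIs of the summed cells of a library on a common scale, for the mix always in the order shNC 1, shNC 2, shSELP 1, shSELP 2.

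Each cell was put in a class by its detected marker genes, and no iron gene was a marker. Across the 4 mix libraries there were 819, 761, 528 and 832 macrophages, 151, 159, 339 and 170 microglia, and 283, 193, 49 and 56 tumor cells. Endothelial cells numbered 22, 33, 345 and 74, and oligodendrocytes 5, 25, 18 and 17. Sorting and mixing set these numbers, so they are not compared between groups. Tgfbi was found in 97.7% of macrophages, Tmem119 in 83.6% of microglia, Prph in 92.9% of tumor cells, Mbp in 98.5% of oligodendrocytes and Flt1 in 95.4% of endothelial cells. Some cells lay near the edge of a class: of 2940 macrophages 93 held 3 of the 10 markers, the fewest allowed, and 352 led the next class by at most 0.05 more than the share of markers required, and of 819 microglia 59 and 124 did. More of the CD11b+ cells did: 643 and 625 of 3731 macrophages, and 88 and 235 of 695 microglia.

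The shSELP library 1 stood apart from the other 3 libraries of the mix. It had the fewest UMIs and the most endothelial cells, and Ttr, a choroid plexus gene, reached 1069 CPM in its macrophages, against 19.4, 58.5 and 54.3 CPM in those of shNC 1, shNC 2 and shSELP 2. Red cell RNA, a possible source of heme genes, was scarce: the 5 erythroid markers summed to 0 CPM in the macrophages of both shNC libraries, 1.39 CPM in shSELP 1 and 0.289 CPM in shSELP 2.

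The targeted gene itself was too scarce to check the knockdown. Selp had 1, 1, 0 and 1 UMIs in the tumor cells of the mix, so that a difference between groups was not detectable at this depth. Over all cells given a class, Selp had 13, 21, 19 and 20 UMIs in the mix, and 3 in the shNC and 1 in the shSELP library of CD11b+ cells. Host endothelial cells of the mix held 8, 12, 15 and 7 of these UMIs, which is 64.7, 51.9, 9.41 and 15 CPM. These levels were lower in both shSELP libraries without passing (-2.40, SE 0.44, adjusted p = 0.069, range over alternatives 0.00198 to 0.568).

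The first comparison asks in which cells of the tumor each gene was expressed, with 4 classes set against macrophages within each mix library. These 5 of the 16 classes are the ones compared, so a rank given below is a rank among them. On average, myeloid cells were highest in Hmox1, Blvrb and Slc11a1, endothelial cells in the iron exporter, and oligodendrocytes in transferrin. In endothelial cells all 9 genes differed from macrophages (2 higher, 7 lower) by edgeR's quasi-likelihood test with Benjamini-Hochberg adjustment, where 59.7% of the 11378 genes tested did. In tumor cells all 9 differed (1 higher, 8 lower) against 69.1% of all genes, in oligodendrocytes 6 of 9 (1 higher, 5 lower) against 51.1%, and in microglia 4 of 9 (2 higher, 2 lower) against 26.6%.

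These fitted differences are relative to the TMM scaling of the sums. Scaling by total UMIs instead raised the median difference of all genes by 0.21 log2 units for microglia, 0.79 for tumor cells, 0.97 for oligodendrocytes and 0.81 for endothelial cells. With it, the share of higher genes among those past the threshold went from 43.6% to 67.2% for microglia, from 48.8% to 75.4% for tumor cells, from 38.6% to 73.5% for oligodendrocytes and from 42.8% to 74.8% for endothelial cells. With DESeq2's size factors these shares were 58.4%, 56.8%, 53.4% and 55.7%.

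Of the 5 classes compared, macrophages and microglia had the highest mean levels of Hmox1 and Blvrb. Hmox1, the inducible heme oxygenase, stood at 250.2, 208, 305 and 252 CPM in macrophages and at 229, 249, 344 and 301 CPM in microglia, and these classes overlapped (means 253.5 ± 39.7 and 280.8 ± 51.7 CPM, SD, n = 4). Tumor cells held 22.6, 37.1, 29.9 and 20.8 CPM of Hmox1, close to the 21.2, 16.6, 17.5 and 12.6 CPM in T cells. Here and below, T cells are shown for comparison only. Free RNA from other cells was not measured, and the T cell level does not stand for it. Endothelial cells and oligodendrocytes, at 43.4 ± 33.6 and 35.5 ± 32.9 CPM, overlapped with tumor cells. Hmox1 was lower than in macrophages by a log2 difference of -3.95 in tumor cells (SE 0.27, adjusted p = 1.8e-12, lower in 4 of 4 libraries), and it did not pass the test in microglia.

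Blvrb, the biliverdin reductase B that also reduces flavins, stood at 191, 178, 179 and 178 CPM in macrophages and at 172, 124, 138 and 138 CPM in microglia, lower in 4 of 4 libraries. Tumor cells held 36.8, 35.2, 48 and 41.6 CPM and endothelial cells 32.3, 126, 68.4 and 62 CPM, which overlapped with each other, and the endothelial cells also with microglia. The difference between microglia and macrophages was -0.56 (SE 0.21, adjusted p = 0.0454) and did not pass under 6 of 12 alternatives, whose adjusted p ranged from 0.00179 to 0.363. Among these, it was -0.54 (adjusted p = 0.128) without shSELP library 1, -0.52 (adjusted p = 0.187) without shSELP library 2 and -0.35 (adjusted p = 0.212) with total UMI scaling.

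Hebp1, which encodes a small heme-binding protein, stood at 109, 97.6, 111 and 110.2 CPM in microglia and at 41.3, 33.7, 59.1 and 47.1 CPM in macrophages. All 4 microglia sums were above all 4 macrophage sums, by a log2 difference of 1.05 (SE 0.22, adjusted p = 0.000503). Oligodendrocytes held 67.9, 55.9, 126 and 71.8 CPM, from 3, 15, 19 and 15 UMIs, and overlapped with microglia. Their difference from macrophages did not pass with TMM scaling (-0.13, SE 0.33) and was 0.87 with total UMI scaling (adjusted p = 0.034, range over alternatives 0.034 to 0.979), so its direction depends on the scaling.

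Ferritin heavy chain, Fth1, was highest in macrophages among the 5 classes. They held 30489, 28953, 36297 and 38952 CPM, microglia 20773, 18492, 17720.5 and 15533 CPM, and oligodendrocytes 23383, 17251, 22121 and 19399.9 CPM. Macrophages lay above the other 4 in every library, whereas microglia and oligodendrocytes overlapped. Endothelial cells held 8431, 7987, 3934 and 4163 CPM and tumor cells 928, 1351, 2176 and 1896 CPM, the latter below the 3198, 3441, 3149 and 3878 CPM in T cells. Fth1 was lower in microglia than in macrophages by -1.10 (SE 0.27, adjusted p = 0.00269, lower in 4 of 4 libraries), or -0.92 (adjusted p = 0.0704) without shSELP library 2, which was the highest adjusted p of the alternatives, down to 1.8e-06. In tumor cells the difference was -5.24 (SE 0.32, adjusted p = 1.3e-13, lower in 4 of 4 libraries).

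Ftl1, the ferritin light chain, did not separate the myeloid classes, with 4893, 4926, 3980.2 and 4902 CPM in macrophages and 5114, 5104, 4009 and 4594 CPM in microglia. The shSELP library 1 was lowest in both. Oligodendrocytes (1439 ± 517 CPM), tumor cells (1106 ± 110.1 CPM) and endothelial cells (1072 ± 235 CPM) overlapped with each other and lay below both myeloid classes. Reads of Ftl1 may be shared with its near-identical copy Ftl1-ps1, which stood at 92.4, 97.2, 127 and 144 CPM in macrophages, and how such reads were assigned is not known.

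Slc40a1 encodes ferroportin, the iron exporter of cells. Its level in endothelial cells was 56.6, 147, 209 and 227 CPM, from 7, 34, 333 and 106 UMIs. Microglia held 5.05, 7.67, 25.5 and 17 CPM and macrophages 0.539, 0.994, 4.87 and 0.651 CPM, from 5, 9, 28 and 9 UMIs. Endothelial cells lay above microglia and microglia above macrophages in each of the 4 libraries. The log2 difference from macrophages was 5.91 in endothelial cells (SE 0.34, adjusted p = 8.0e-12, or 6.76 without shSELP library 1 and 5.30 without shSELP library 2) and 2.95 in microglia (SE 0.36, adjusted p = 2.8e-06). Slc40a1 was listed at 0 in tumor cells and oligodendrocytes of all 4 libraries. A count of 0 allows up to 0.677, 0.959, 3.90 and 4.46 CPM in tumor cells, above the macrophage level in 2 of the 4 libraries, so although tumor cells passed the test no fold is given, and in oligodendrocytes it allows 11.2 to 67.9 CPM.

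Trf, which encodes transferrin, was highest in oligodendrocytes among the 5 classes. Oligodendrocytes held 9643, 6592, 9127 and 8468 CPM, above the other 4 classes in each library and higher than macrophages by a log2 difference of 4.07 (SE 0.34, adjusted p = 2.0e-10). Macrophages held 272, 152, 239 and 315 CPM, microglia 346, 218, 436 and 343 CPM, and tumor cells 58.2, 191, 332 and 209.7 CPM, and these classes overlapped. Endothelial cells held 48.5, 51.9, 25.1 and 34.2 CPM. Choroid plexus cells, which were not tested, held 1, 277, 41 and 1 UMIs of Trf, or 100.2, 5641, 122 and 13.4 CPM. Tumor cells passed the test against macrophages at -1.19 (SE 0.31, adjusted p = 0.00169) although they were lower in only 2 of 4 libraries by CPM, and with total UMI scaling the difference was -0.34 (adjusted p = 0.325, the highest of the alternatives, down to 2.6e-07).

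Tfrc, the transferrin receptor, was lowest in the myeloid classes among the 5. Endothelial cells held 64.7, 117, 204 and 141 CPM, tumor cells 72.7, 23, 28.6 and 47.6 CPM, and oligodendrocytes 45.3, 41, 26.5 and 28.7 CPM. Macrophages, at 6.58, 9.27, 8 and 7.38 CPM, and microglia, at 8.97, 7.25, 5.72 and 8.01 CPM, lay below these classes in every library and overlapped with each other. Against macrophages Tfrc was higher in endothelial cells by 3.43 (SE 0.31, adjusted p = 4.1e-10, 4 of 4 libraries) and in tumor cells by 1.67 (SE 0.30, adjusted p = 1.9e-05, 4 of 4 libraries), the latter 1.07 without shNC library 1 (adjusted p = 0.00164, the highest of the alternatives). T cells held 92.6, 47.3, 30.3 and 39.9 CPM, so Tfrc was not scarce in lymphoid cells.

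Slc11a1, a metal transporter of the phagosome, stood at 228, 191, 199.95 and 240.0 CPM in macrophages and at 221, 247, 237 and 270.5 CPM in microglia, which overlapped. Tumor cells held 2.03, 0.959, 1.3 and 4.46 CPM, from 9, 3, 1 and 3 UMIs, under the 8.89, 9.41, 6.98 and 6.65 CPM in T cells. The difference between tumor cells and macrophages was -7.67 (SE 0.46, adjusted p = 1.1e-13, lower in 4 of 4 libraries).

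**Figure D1:**
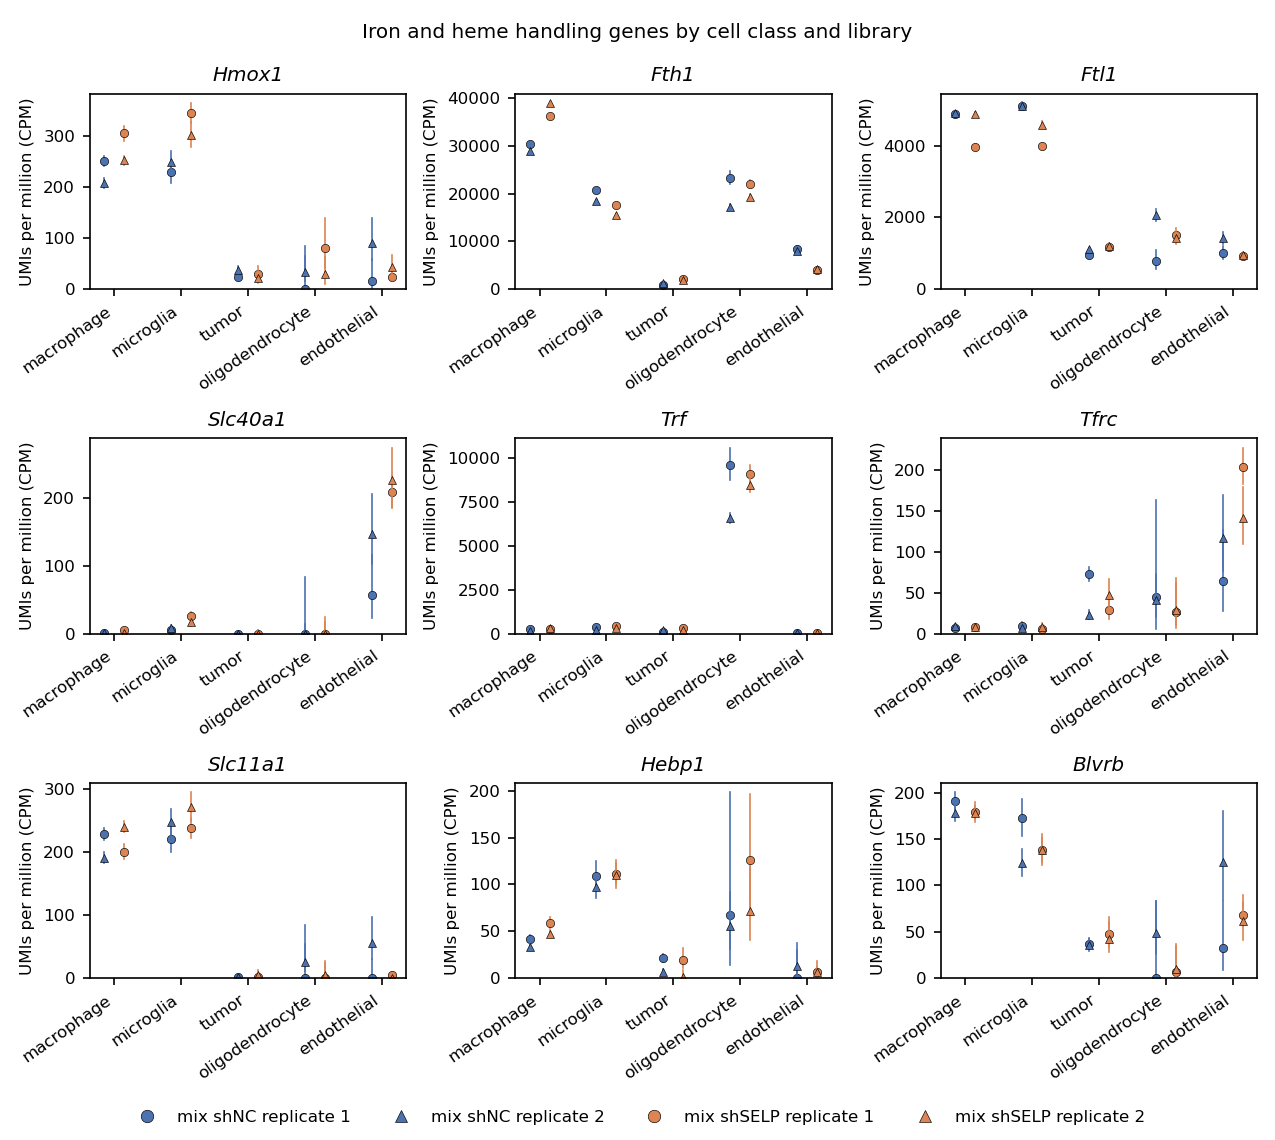
Level of each gene (CPM, linear axis from 0) by cell class in the 4 mix libraries, each point 1 library with its 95% Poisson interval, which covers counting error only. Trf peaks in oligodendrocytes (6592 to 9643 CPM), Slc40a1 in endothelial cells (56.6 to 227 CPM), and Slc11a1 and Hmox1 in the myeloid classes.

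The next comparison asks how the genes vary among macrophages, between 5 states defined by markers of their own: an inflammatory state, monocytes, an Ms4a7 state, a Gpnmb state and proliferating cells. Hebp1 was almost missing from monocytes, Hmox1 was low in the Ms4a7 state, and the ferritin light chain was high in the Gpnmb state. Across the 4 libraries the Gpnmb state rested on few cells, 16, 45, 13 and 27. Inflammatory cells numbered 48, 40, 42 and 102, and monocytes 95, 113, 77 and 74. Ms4a7 cells numbered 260, 187, 166 and 174, and proliferating cells 131, 110, 57 and 158. Each state was tested against the mean of the others in the fit within the 4 libraries. In monocytes 6 of 7 tested genes differed, all of them lower, where 40.9% of the 6231 genes tested did. The Ms4a7 state had 2 of 7 (1 higher, 1 lower) against 12% of all genes, the Gpnmb state 2 of 7 (both higher) against 6.1%, proliferating cells 2 of 7 (1 higher, 1 lower) against 14.1%, and the inflammatory state 1 of 7 (higher) against 2.63%. Slc40a1 and Tfrc, with at most 27 UMIs in any sum, were too low to test. For proliferating cells the share of higher genes among all past the threshold was 57.4%, and 71.2% with total UMI scaling.

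Hmox1 stood at 129, 124, 239 and 155 CPM in Ms4a7 cells, against 353, 231, 354 and 376 CPM in monocytes and 151, 148, 216 and 282 CPM in proliferating cells. Ms4a7 cells lay below monocytes in each library and overlapped with proliferating cells. The log2 difference of the Ms4a7 state was -0.94 (SE 0.21, adjusted p = 0.00281).

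The ferritin chains differed in where they were high. Fth1 held 36539, 34982, 43492 and 47133 CPM in inflammatory cells, against 29539, 23404, 34645 and 29974 CPM in monocytes and 28859, 27153, 33098 and 33548 CPM in Ms4a7 cells. Ftl1 held 7251, 6875, 5814 and 6237 CPM in Gpnmb cells, against 3428, 3469, 2942 and 3231 CPM in monocytes. Monocytes were the lowest of the 5 states in Ftl1 in every library, and neighbouring states in the order of Fth1 overlapped. In the Gpnmb state Ftl1 was higher by 0.55 (SE 0.08, adjusted p = 2.0e-05). In inflammatory cells Fth1 was higher by 0.29 (SE 0.07, adjusted p = 0.0183), and by 0.26 both without shSELP library 1 (adjusted p = 0.161) and without shSELP library 2 (adjusted p = 0.07), over a range of adjusted p from 2.3e-08 to 0.161.

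Hebp1 was nearly absent from monocytes, at 5.11, 6.43, 8.28 and 4.58 CPM, against 45.4, 52.6, 101 and 69.9 CPM in Gpnmb cells and 50, 41.2, 68.8 and 59.8 CPM in Ms4a7 cells. Its level in T cells was 2.29, 1.11, 1.55 and 1.55 CPM. Monocytes were below the other 4 states in each library, by a log2 difference of -2.96 (SE 0.26, adjusted p = 2.5e-10), and Hebp1 was higher in Gpnmb cells by 1.18 (SE 0.21, adjusted p = 0.000287), in Ms4a7 cells by 0.82 (SE 0.12, adjusted p = 1.8e-05) and in proliferating cells by 0.66 (SE 0.13, adjusted p = 0.00054).

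Monocytes were low in 5 more genes. Trf held 136, 109, 93.1 and 189 CPM in monocytes, against 271, 195, 288 and 373 CPM in proliferating cells, and the fitted difference of monocytes was -0.94 (SE 0.14, adjusted p = 2.9e-06). Slc11a1 held 148, 139, 106 and 127 CPM and Blvrb 92, 114, 137 and 109.9 CPM in monocytes, and their differences were -0.75 (SE 0.11, adjusted p = 3.6e-06) and -0.72 (SE 0.10, adjusted p = 1.2e-06). Slc11a1 in monocytes did not overlap with the other 4 states. Ftl1 and Fth1 were lower by -0.66 (SE 0.08, adjusted p = 2.6e-07) and -0.30 (SE 0.07, adjusted p = 0.00157).

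By mean CPM of Fth1, proliferating cells were at rank 3 of the 5 states, with 31370 CPM. Ms4a7 cells, at 30660 CPM, and monocytes, at 29390 CPM, were lower, and neighbours overlapped. The fit also holds a state that is not reported here. In it, Fth1 in proliferating cells passed at -0.23 (SE 0.07, adjusted p = 0.0308) and did not under 5 of 11 alternatives (adjusted p from 0.000311 to 0.298). It was -0.18 without shNC library 1 (adjusted p = 0.212), -0.22 without shNC library 2 (adjusted p = 0.121), -0.21 without shSELP library 1 (adjusted p = 0.141) and -0.16 with cells thinned to equal depth, where the adjusted p was 0.298.

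Leaving out a library also made calls that the reported setting did not make. In proliferating cells Hmox1 reached -0.92 without shSELP library 2 (adjusted p = 0.0052, range over alternatives 6.6e-07 to 0.345) and Ftl1 -0.23 (adjusted p = 0.0293, range up to 0.958), and Trf 0.39 without shNC library 1 (adjusted p = 0.0187, range 0.00406 to 0.621). In the class comparison, Tfrc in oligodendrocytes reached 1.08 without shNC library 1 (adjusted p = 0.0471, range 0.00225 to 0.234). In the reported setting these 4 did not pass, and each also passed under at least 1 other alternative.

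**Figure D2:**
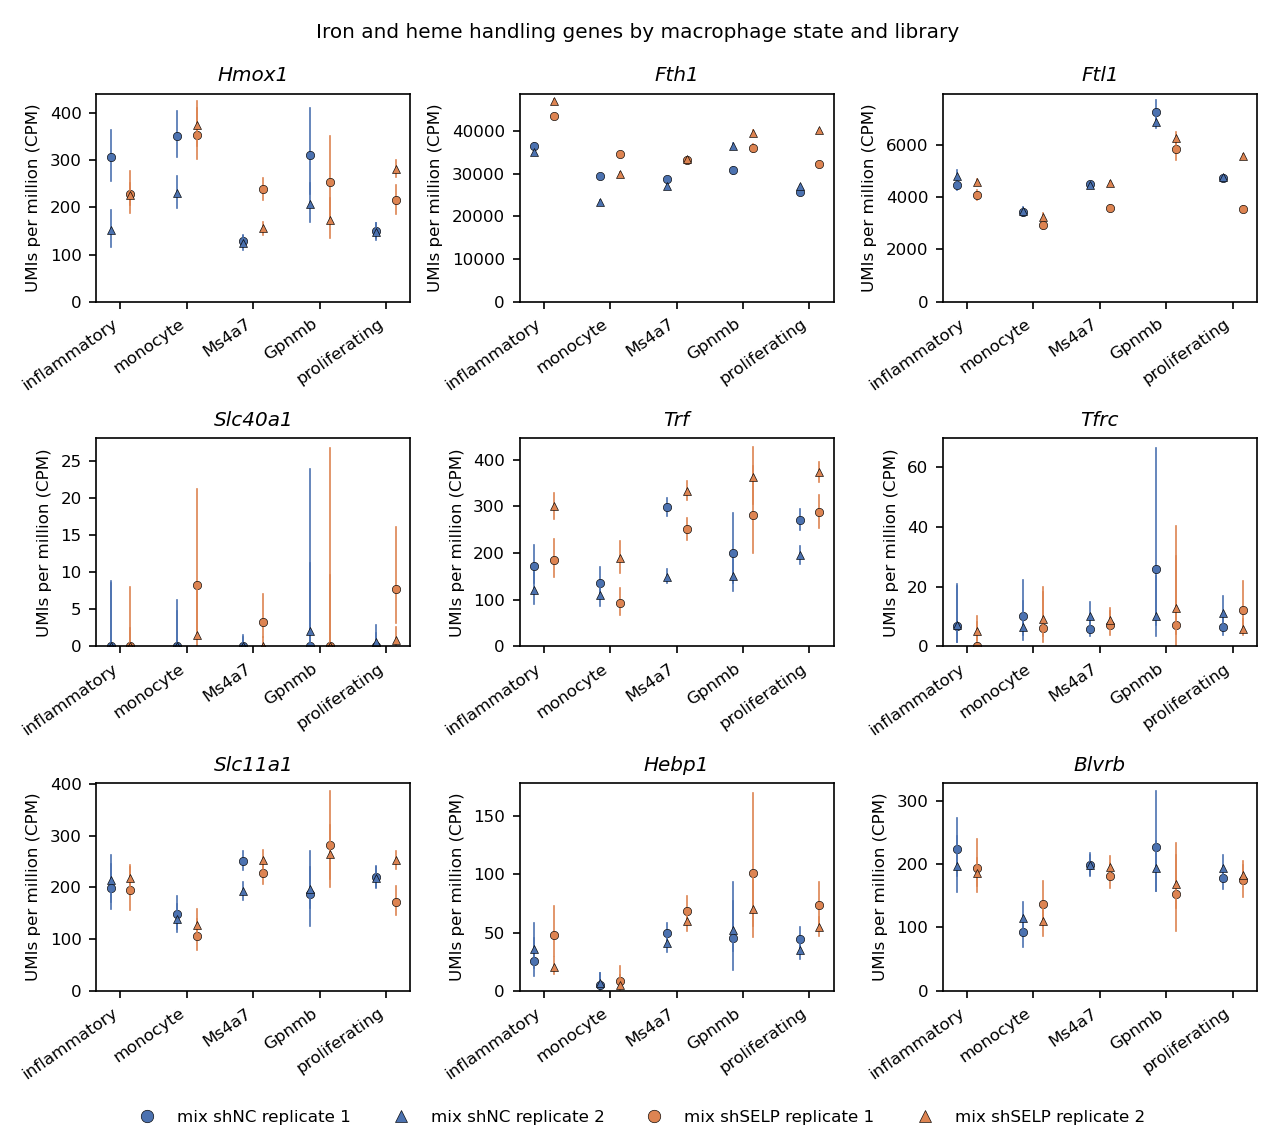
Level of each gene (CPM, linear axis from 0) by macrophage state in the 4 mix libraries, each point 1 library with its 95% Poisson interval. Hmox1 in Ms4a7 cells lies between 124 and 239 CPM, and Hebp1 in monocytes lies between 4.58 and 8.28 CPM.

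The main comparison of the study is between shSELP and shNC tumors. In macrophages of the mix 0 of 8 tested iron genes passed, where 0.4% of 10755 genes did. Of the 8 fitted differences 7 were above 0, those of Blvrb and Tfrc by 0.01, and the median was 0.23 (-0.00 to 0.46 under alternatives) against -0.00 over all genes. Of the 8 genes, 3 had an unadjusted p under 0.05 in edgeR's quasi-likelihood test (Hebp1, Fth1 and Hmox1), as did 12.1% of all genes, and DESeq2 called 0. Among all genes past the threshold the split was 22 higher and 21 lower, against 22 and 40 with total UMI scaling and 60 and 39 with DESeq2.

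Fth1 in macrophages was 30489 and 28953 CPM in the shNC libraries and 36297 and 38952 CPM in the shSELP libraries, which did not overlap. The log2 difference was 0.40 (SE 0.11, adjusted p = 0.215, higher in 2 of 2 libraries), and with no filter on low counts it was 0.39 with an adjusted p of 0.0101, the lowest of a range up to 0.392. Hebp1 was 41.3 and 33.7 CPM against 59.1 and 47.1 CPM, again without overlap, with a difference of 0.54 (SE 0.15, adjusted p = 0.212). With the replicate number of the labels as a block it was 0.56 (adjusted p = 0.0256, range up to 0.482). Hmox1 was 250.2 and 208 CPM against 305 and 252 CPM, with a difference of 0.33 (SE 0.14, adjusted p = 0.388). Its shNC library 1 (95% interval 240.1 to 260.6 CPM) and shSELP library 2 (243.4 to 260.2 CPM) were alike within counting error.

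Trf in macrophages was 272 and 152 CPM in shNC and 239 and 315 CPM in shSELP libraries, which overlapped. Its difference of 0.44 (SE 0.26, adjusted p = 0.554) became 0.96 (adjusted p = 0.0489, range up to 0.9999) without shNC library 1. Ftl1, Blvrb, Slc11a1 and Tfrc overlapped between groups, with differences of -0.09, 0.01, 0.13 and 0.01, and the signs of Ftl1, Blvrb, Slc11a1 and Tfrc turned under at least 1 alternative. Slc40a1 was too low to test in macrophages (5 and 9 UMIs against 28 and 9).

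In microglia of the mix 1 of 9 genes passed, the iron exporter Slc40a1, where 3.49% of 8901 genes did. Slc40a1 was 5.05 and 7.67 CPM in the shNC libraries (9 and 18 UMIs) and 25.5 and 17 CPM in the shSELP libraries (89 and 34 UMIs). Both shSELP libraries lay above both shNC libraries, by a log2 difference of 1.68 (3.21-fold, SE 0.33, adjusted p = 0.0151, higher in 2 of 2 libraries) in edgeR's quasi-likelihood test. At an unadjusted p under 0.05 there were 3 of 9 (Slc40a1, Hmox1 and Ftl1) and 19.7% of all genes. The median difference of the 9 genes was 0.05 (-0.20 to 0.13 under alternatives), against 0.01 over all genes.

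The call of Slc40a1 depended on the setting. Without shSELP library 1 it was 1.35 (adjusted p = 0.0749), with classes taken from clusters 1.09 (adjusted p = 0.201), and the adjusted p of the alternatives ranged from 1.7e-05 to 0.201. DESeq2 gave 1.67 (SE 0.55) with an unadjusted p of 0.00217 and no adjusted value, and called 0 of the 9 genes.

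Microglia in which at least 1 UMI of Slc40a1 was found made up 3.97%, 6.92%, 18.0% and 10.6% of the class. The median depth of microglia was 11540, 14790, 8047 and 9663 UMIs. With each cell thinned to 2000 UMIs, and 10, 20, 16 and 23 shallower cells left out, the shares of Slc40a1 were 1.42%, 2.88%, 5.57% and 2.72%, and the shSELP library 2 then lay within the range of the shNC libraries. In T cells, with median depths of 5734, 5692, 4986 and 7634 UMIs and 33, 18, 13 and 4 cells too shallow, the shares were 0%, 0.217%, 0.481% and 0.212% and, thinned, 0%, 0%, 0% and 0.214%. By CPM, T cells held 0, 0.277, 1.55 and 0.222 of Slc40a1.

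Endothelial RNA was also higher beside Slc40a1 in the microglia sums of the shSELP libraries. The 10 endothelial markers summed to 52.7, 69.1, 83.8 and 75.6 CPM, Pecam1 was the most abundant in each, and 5, 2, 0 and 3 of them were at 0. The ratio of Slc40a1 to these markers was 0.0957, 0.111, 0.304 and 0.225 in microglia, and 0.00589, 0.0142, 0.016 and 0.0167 in endothelial cells themselves. In an alternative chosen after seeing the data, microglia with any UMI of an endothelial marker were left out, which kept 86, 87, 188 and 97 cells with 9.22, 5.46, 23.6 and 19.4 CPM of Slc40a1. The difference was then 1.54 with an adjusted p of 0.0769, on fewer cells, and the part of endothelial RNA in the result was not tested further. The largest number of Slc40a1 UMIs in 1 cell was 4, 5, 17 and 8, and cells without Cd163 or Mrc1, which macrophages at vessels express, held 9, 15, 75 and 30 of its UMIs.

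Hmox1 in microglia was 229 and 249 CPM in shNC and 344 and 301 CPM in shSELP libraries, without overlap, and did not pass (0.38, SE 0.14, adjusted p = 0.165). Ftl1 was 5114 and 5104 CPM against 4009 and 4594 CPM, lower without overlap, with a difference of -0.30 (SE 0.14, adjusted p = 0.25). Fth1 was 20773 and 18492 CPM against 17720.5 and 15533 CPM, also lower without overlap, with a difference of -0.30 (SE 0.14, adjusted p = 0.261). Trf and Ftl1 depended on single libraries. Without shNC library 1 Trf was 0.81 (adjusted p = 0.0258), and without shSELP library 2 Trf was 0.55 (adjusted p = 0.0196, range up to 0.897) and Ftl1 -0.43 (adjusted p = 0.0312, range up to 0.658). With all libraries Trf was 0.41 (SE 0.20, adjusted p = 0.284), and Blvrb, Slc11a1, Tfrc and Hebp1 lay between -0.32 and 0.06.

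Fth1 passed in neither myeloid class alone. Whether the shSELP difference itself differed between microglia and macrophages was tested as an interaction, which 1 of 9 iron genes passed, Fth1, where 1.05% of 10661 genes did. The shSELP difference of Fth1 in microglia was below that in macrophages by a log2 value of -0.71 (SE 0.14, adjusted p = 0.0387). Macrophages were higher in 2 of 2 shSELP libraries and microglia lower in 2 of 2. DESeq2 also called 1 of 9, and 2 of 9 had an unadjusted p under 0.05 (Fth1 and Hebp1), as did 13% of all genes. The median over the 9 genes was -0.17 (-0.24 to -0.04 under alternatives) against -0.00 over all genes, and total UMI scaling moved the latter by 0.13. The split of all genes past the threshold was 53 higher and 59 lower, 63 and 15 with total UMI scaling, and 21 and 45 with DESeq2.

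The Fth1 interaction did not pass in 5 of 13 alternatives, though its sign held in all 13 (from -0.86 to -0.58, adjusted p from 1.3e-10 to 0.161). It was -0.67 without shNC library 1 (adjusted p = 0.161), -0.58 without shSELP library 2 (adjusted p = 0.142), -0.58 with total UMI scaling (adjusted p = 0.0814) and -0.70 without called doublets (adjusted p = 0.0569). Without microglia that held an endothelial marker, an alternative chosen after seeing the data, it was -0.75 (adjusted p = 0.0566). The 10 macrophage markers in the microglia sums stood at 1696, 1120, 949 and 661 CPM, with Tgfbi or Ms4a7 most abundant and 0 of them at 0, lower in the shSELP libraries as Fth1 was. The 10 microglia markers stood at 4499, 5749, 8203 and 6443 CPM. Their part in the result was not tested. The interaction of Slc40a1 was 0.07 (SE 1.16), or 1.51 without shSELP library 1 and -0.78 without shSELP library 2, so a difference in its response between the classes is not shown, and that of Hebp1 was -0.53 (SE 0.17, adjusted p = 0.184).

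In endothelial cells of the mix 1 of 7 tested genes passed, Fth1, which was lower in shSELP tumors, where 0.535% of 5425 genes passed. Fth1 was 8431 and 7987 CPM in the shNC libraries and 3934 and 4163 CPM in the shSELP libraries. The groups did not overlap, and the log2 difference was -1.05 (0.482-fold, SE 0.12, adjusted p = 0.018, lower in 2 of 2 libraries), with DESeq2 calling the same gene (-1.06, SE 0.24, adjusted p = 0.00277). Without shSELP library 1 it was -0.98 (adjusted p = 1.6e-05, range over alternatives up to 0.261). In all, 3 of 7 genes had an unadjusted p under 0.05 (Fth1, Slc40a1 and Tfrc), as did 16.4% of all genes. The median of the 7 genes was -0.49 against 0.00 over all genes, and it lay between -0.95 and 0.92 under alternatives. The highest was without shNC library 2, where Hmox1 went from -1.14 to 0.92 and Blvrb from -0.49 to 1.08, neither of which passed. The genes past the threshold were 0 higher and 29 lower, against 8 and 45 with total UMI scaling and 1 and 46 with DESeq2.

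RNA of myeloid cells, which are rich in Fth1, also differed between these endothelial sums. The macrophage markers other than Fn1, which endothelial cells make themselves, summed to 64.7, 584, 139.9 and 47.1 CPM over 9 genes, with Ly6c2 most abundant in both shNC libraries, Tgfbi in shSELP 1 and Ms4a4c in shSELP 2, and 6, 2, 0 and 2 of them at 0. The 8 microglia markers that few endothelial cells hold summed to 64.7, 190.5, 23.2 and 10.7 CPM, with 6, 1, 2 and 5 at 0 and Siglech most abundant in both shNC libraries, Olfml3 in shSELP 1 and Cx3cr1 in shSELP 2. The 5 choroid plexus markers, nearly all of it Ttr, summed to 24.2, 77.9, 3142 and 124 CPM, with 4, 4, 0 and 3 at 0. In an alternative chosen after seeing the data, endothelial cells with any UMI of these macrophage or microglia markers were left out. That kept 17, 22, 301 and 59 cells with 6551, 3985, 2973 and 3316 CPM of Fth1. Both shSELP libraries still lay below both shNC libraries. On these fewer cells the difference of Fth1 was -0.77 and did not pass (adjusted p = 0.261). The part of choroid plexus RNA was not tested. With classes from clusters it was -1.06 (adjusted p = 0.0722), and the adjusted p of 15 alternatives ranged from 1.4e-09 to 0.261.

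The exporter and the transferrin receptor of endothelial cells were higher in shSELP tumors without passing. Slc40a1 was 56.6 and 147 CPM against 209 and 227 CPM, without overlap, with a difference of 0.92 (SE 0.35, adjusted p = 0.259). It was 1.99 without shNC library 2 (adjusted p = 0.00459) and 1.04 with no filter on low counts (adjusted p = 0.0254), within a range up to 0.755. The share of endothelial cells with a UMI of Slc40a1 was 13.6%, 36.4%, 44.1% and 58.1%, and 6.25%, 22.2%, 27.6% and 33.9% in thinned cells, with 6, 6, 84 and 15 cells too shallow and median depths of 4880, 5860, 3231 and 4862 UMIs. Tfrc was 64.7 and 117 CPM against 204 and 141 CPM, without overlap, with a difference of 0.83 (SE 0.34, adjusted p = 0.285), or 1.503 without shNC library 2. Trf went the other way, at 48.5 and 51.9 CPM against 25.1 and 34.2 CPM, without overlap, with a difference of -0.90 (SE 0.39, adjusted p = 0.304). The shNC sums rest on 22 and 33 cells.

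In tumor cells of the mix 0 of 7 tested genes passed, where 0.0403% of 9937 genes did, and 2 of 7 had an unadjusted p under 0.05 in edgeR's quasi-likelihood test (Fth1 and Trf), as did 12.5% of all genes, with 0 called by DESeq2. Fth1 was 928 and 1351 CPM in shNC and 2176 and 1896 CPM in shSELP tumor cells, without overlap, by a difference of 0.80 (SE 0.22, adjusted p = 0.228, higher in 2 of 2 libraries). Trf was 58.2 and 191 CPM against 332 and 209.7 CPM, without overlap, by 1.11 (SE 0.44, adjusted p = 0.354). All of these Fth1 levels were below those of T cells. The 9 oligodendrocyte markers in the tumor sums stood at 365, 553, 652 and 457 CPM, lowest where Trf was lowest, with 3, 1, 1 and 4 at 0. The 10 macrophage markers stood at 490, 517, 510 and 555 CPM, nearly all of it Fn1, with 1, 0, 5 and 3 at 0. Choroid plexus, which also makes transferrin, left 14.9, 53.4, 684 and 35.7 CPM of its 5 markers, led by Ttr, with 2, 2, 3 and 4 at 0. The part of any of these in the result was not tested.

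The calls in tumor cells turned on the shNC libraries. Without shNC library 2, Fth1 was 1.04 (adjusted p = 0.00098), Trf 2.13 (adjusted p = 9.5e-11) and Tfrc -1.04 (adjusted p = 0.0179), and without shNC library 1 Trf was 0.48 and Tfrc 0.67. With no filter on low counts Fth1 was 0.75 (adjusted p = 0.017) and Trf 1.06 (adjusted p = 0.000158). The ranges of adjusted p over alternatives reached 0.497 for Fth1, 0.986 for Trf and 0.999 for Tfrc. With all libraries Tfrc was -0.43 (SE 0.52), at 72.7 and 23 CPM against 28.6 and 47.6 CPM. Among all genes the split was 3 higher and 1 lower, and 17 and 12 with DESeq2. The median of the 7 iron genes was 0.16 (0.14 to 0.83 under alternatives), against -0.01 over all genes.

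In oligodendrocytes 0 of 4 tested genes passed edgeR's quasi-likelihood test, where 0.302% of 3306 genes did. Without adjustment 0 had a p under 0.05, against 7.14% of all genes, and DESeq2 called 0. Trf was 9643 and 6592 CPM against 9127 and 8468 CPM, a difference of 0.08 (SE 0.36), and Fth1 was 23383 and 17251 CPM against 22121 and 19399.9 CPM, a difference of -0.01 (SE 0.34). The groups overlapped for both genes. The sums rest on 5 to 25 cells, so differences of the size of these SEs were not detectable. The median of the 4 genes was 0.04 (-0.07 to 0.50 under alternatives) against 0.02 over all genes.

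The CD11b+ libraries allow no test between groups, with 1 library each, and the intervals given cover counting error only. The direction of each ratio follows the sample titles, the genotype given in the labels and the column names of the deposited counts, which all name the same group, while a description line in 7 of the 8 label entries of the shSELP library names the negative control. Here Hmox1 and the ferritin light chain were lower in the shSELP library in both myeloid classes. In macrophages (1735 shNC and 1996 shSELP cells) 3 of 9 iron genes were past 1.5-fold, where 17.4% of 10273 genes with at least 20 UMIs were. In microglia (393 and 302 cells) 4 of 9 were, where 19.1% of 8422 genes were.

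Hmox1 in CD11b+ macrophages was 305 CPM in the shNC and 195 CPM in the shSELP library, a ratio of 0.64 (95% interval 0.6 to 0.683). In CD11b+ microglia it was 265.5 and 111 CPM, a ratio of 0.417 (0.353 to 0.491). In the mix Hmox1 was higher in the shSELP libraries without passing, in microglia without overlap, and in macrophages with shNC 1 and shSELP 2 alike within counting error. The experiments also differ in sorting and, by the labels, in day, and the difference between them was not tested.

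Ftl1 was 4247 and 2749 CPM in CD11b+ macrophages, a ratio of 0.647 (0.636 to 0.658), and 4205 and 2751 CPM in microglia, a ratio of 0.654 (0.632 to 0.677). Its copy Ftl1-ps1 was likewise lower in the shSELP library, at 136 and 99.5 CPM in macrophages, whereas in the mix it was higher in the shSELP libraries, at 93.7 and 113 CPM against 121 and 133 CPM in microglia. Fth1 hardly moved in macrophages, at 29968 and 30595 CPM, a ratio of 1.02 (1.01 to 1.03), and was 22377 and 18854 CPM in microglia, a ratio of 0.843 (0.831 to 0.854). Blvrb was 253 and 174 CPM in macrophages, a ratio of 0.69 (0.643 to 0.74), and 229 and 138 CPM in microglia, a ratio of 0.604 (0.516 to 0.704).

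Slc40a1 in CD11b+ cells had few UMIs: 8 and 21 in macrophages, a ratio of 2.65 (1.13 to 6.91), and 16 and 8 in microglia, a ratio of 0.721 (0.267 to 1.78). Its microglial rise in the mix therefore had no counterpart of the same sign here, though the interval includes 1. Tfrc was 4.08 and 9.42 CPM in microglia, from 10 and 16 UMIs, a ratio of 2.31 with an interval from 0.984 to 5.68, and 4.06 and 5.12 CPM in macrophages. Slc11a1 was 128 and 95.9 CPM in macrophages, a ratio of 0.747 (0.679 to 0.822), and 154 and 151 CPM in microglia. Trf was 188 and 171 CPM in macrophages, a ratio of 0.91 (0.845 to 0.981), and its ratio in microglia was 0.759 (0.668 to 0.8605). Hebp1 was 59.7 and 62.5 CPM in macrophages, a ratio of 1.05 (0.9205 to 1.19), and its ratio in microglia was 0.958 (0.796 to 1.15). The study names both among ligands enriched in these cells, from a signature scored per cell, which is another measure. In these sums Trf was lower in the shSELP library, and the intervals of Hebp1 included 1.

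By state, Hmox1 was lower in the CD11b+ shSELP library in 4 of the 5 states, in 3 of them with an interval below 1. In proliferating cells it was 227 against 106 CPM, a ratio of 0.469 (0.355 to 0.612), and in monocytes 251 against 138 CPM, a ratio of 0.55 (0.419 to 0.716). The ratio was 0.648 (0.53 to 0.791) in the Gpnmb state and 0.821 in the inflammatory state, where the interval, from 0.54 to 1.24, includes 1. The exception was the Ms4a7 state, at 163 and 182 CPM, a ratio of 1.12 (0.995 to 1.26). Groups were not tested within a state. Ftl1 was lower in all 5 states, with ratios between 0.549 and 0.721.

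**Figure D3:**
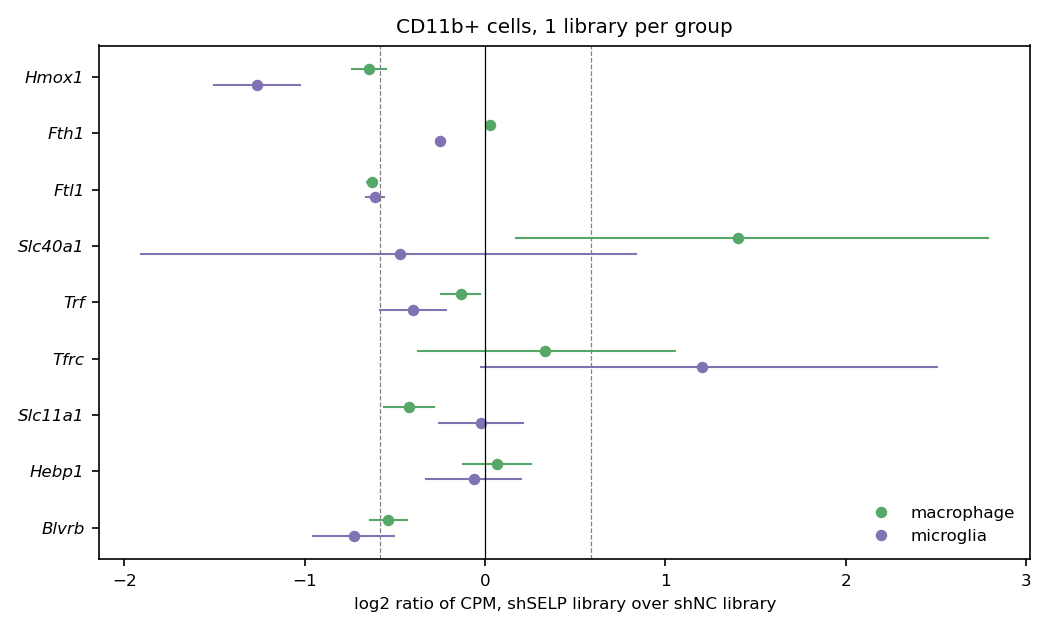
Log2 ratio of CPM, shSELP over shNC library, of each gene in CD11b+ macrophages and microglia (1 library per group), with 95% intervals for counting error and dashed lines at 1.5-fold. Hmox1 and Ftl1 lie past 1.5-fold on the lower side in both classes, and Fth1 in macrophages lies at a ratio of 1.02.

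Around these genes, 4 lists of related genes were followed between shSELP and shNC in the mix. In macrophages 1 of 12 tested genes of iron storage and sensing passed (1 higher), with a median log2 difference of -0.12, against 0 of 9 genes of iron uptake and release (median 0.13), 0 of 15 of heme synthesis and handling (0.04) and 0 of 9 NRF2 targets, antioxidant genes regulated together with Hmox1 (0.19). The median over all genes was -0.00, and 0.4% of all genes passed. Without adjustment edgeR's quasi-likelihood test had 2, 1, 1 and 2 of them under 0.05, against 12.1% of all genes, and DESeq2 called 1, 0, 0 and 1. In microglia 1 of 7 uptake and release genes passed (1 higher), with a median of 0.32, against 0 of 12 storage genes (-0.01), 0 of 15 heme genes (-0.17) and 0 of 9 NRF2 targets (0.12), with 2 genes of each list and 19.7% of all genes under 0.05 without adjustment, 0 called by DESeq2, and over all genes 3.49% past the threshold and a median of 0.01.

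The same lists had no gene past the threshold in the other classes, by edgeR's quasi-likelihood test or by DESeq2, where by the former 0.0403% of all genes passed in tumor cells, 0.535% in endothelial cells and 0.302% in oligodendrocytes. In tumor cells 0 of 6 uptake, 0 of 12 storage, 0 of 16 heme and 0 of 9 NRF2 genes passed, with medians of 0.41, -0.16, 0.09 and 0.04 against -0.01 over all genes and 3, 0, 1 and 1 genes under 0.05 without adjustment, against 12.5% of all genes. In endothelial cells 0 of 4, 0 of 6, 0 of 9 and 0 of 7 passed, with medians of 0.15, -0.38, 0.14 and -0.34 against 0.00, and 0, 2, 2 and 2 genes under 0.05, against 16.4% of all genes. In oligodendrocytes 0 of 4 storage, 0 of 6 heme and 0 of 7 NRF2 genes passed, with medians of -0.38, 0.95 and -0.31 against 0.02 and 0, 3 and 0 genes under 0.05, against 7.14% of all genes, and no uptake gene was tested.

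The storage gene was Slc25a37, mitoferrin, which carries iron into mitochondria. It stood at 27.3 and 28.9 CPM in shNC and at 49.4 and 49.5 CPM in shSELP macrophages. The groups did not overlap, and the log2 difference was 0.87 (1.83-fold, SE 0.10, adjusted p = 0.0302, higher in 2 of 2 libraries). It was 0.89 without shSELP library 1 (adjusted p = 0.0548) and 0.85 without shSELP library 2 (adjusted p = 0.0869), and the adjusted p of the alternatives ranged from 0.000686 to 0.246. In microglia it was 16.3 and 14.1 CPM against 26.3 and 21.0 CPM, which did not pass (0.61, SE 0.25, adjusted p = 0.198). The CD11b+ libraries gave 25.4 and 30.4 CPM in macrophages and 16.7 and 11.2 CPM in microglia.

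The uptake gene was Cd163, the receptor for haptoglobin bound to hemoglobin. In microglia it had 0 UMIs in both shNC libraries and 26 and 10 UMIs in the shSELP libraries, at least 9.02-fold higher against a floor of 3 counts over the shNC group (adjusted p = 0.00882, higher in 2 of 2 libraries). Only 5 of 339 and 2 of 170 microglia held these UMIs. Cd163 met the minimum count of 10 only where it was high, in the shSELP group. Its entry into the test therefore depended on the difference tested, and the adjusted p is not independent of that selection. Without shSELP library 1 Cd163 was not tested, without shNC library 2 its adjusted p was 0.0791, and the lowest of the alternatives was 2.4e-06. Macrophages of the mix held 2, 0, 23 and 11 UMIs of Cd163, with the highest count in shSELP library 1. In CD11b+ microglia Cd163 had 4 UMIs in the shNC and 0 in the shSELP library. Cd163 was the highest of the 7 genes tested, so the median of its list is the same with it at the bound.

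In the interaction of class and group, 1 of 9 NRF2 targets passed (1 lower, median -0.20), where 1.05% of all genes did. It was Txn1 (thioredoxin), which lies outside the rule for named genes and was chosen after its values were seen. Txn1 was 1161 and 1167 CPM in shNC and 1210 and 1292 CPM in shSELP macrophages, and 695 and 672 CPM against 451 and 564 CPM in microglia, a log2 value of -0.67 (SE 0.14, adjusted p = 0.049). It did not pass under 8 of 13 alternatives (adjusted p from 0.000103 to 0.178). Of the uptake, storage and heme lists 0 of 10, 0 of 12 and 0 of 15 genes passed edgeR's quasi-likelihood test, with medians of 0.08, -0.10 and -0.30 against -0.00 over all genes, 1, 2 and 2 under 0.05 without adjustment, against 13% of all genes, and 0 called by DESeq2.

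Genes whose levels ran closest to each iron gene were found over the 20 sums of 5 classes and 4 libraries, as Pearson's r of log2(CPM + 1) among the 6306 genes that averaged 20 CPM or more. The sums share libraries and classes, so r describes where a gene is expressed. Slc11a1 ran with C3ar1 (r = 0.984), Dock2 (0.983) and Adgre1 (0.982), and Ftl1 with Cotl1 (0.964), Npc2 (0.963) and Fyb (0.96). Hmox1 ran with Pold4 (0.948) and Ntpcr (0.937), and Blvrb with Lrrfip1 (0.957), Lmnb1 (0.951) and Prcp (0.951). Fth1 ran with Pde4b (0.951), Gde1 (0.95) and Sorl1 (0.943), and Hebp1 least closely with Retreg1 (0.917), Fam213b (0.908) and Il18 (0.897). Slc40a1 ran with Cd34 (0.966), Adgrl2 (0.963) and Tns1 (0.946), Tfrc with Actn4 (0.953) and Cers4 (0.95), and Trf with Mpc1 (0.976), Mag (0.945) and Arl8a (0.937). Of these, Mag was one of the oligodendrocyte markers.

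The genes lie (mm10, GENCODE M21) as follows, Hmox1 at chr8:75093621-75100589, Fth1 at chr19:9980598-9985098, Ftl1 at chr7:45457944-45459884, Slc40a1 at chr1:45908068-45926523, Trf at chr9:103204001-103230444, Tfrc at chr16:32608920-32632794, Slc11a1 at chr1:74375195-74386062, Hebp1 at chr6:135137522-135198022 and Blvrb at chr7:27447978-27466144, with Ftl1, Slc40a1, Trf and Hebp1 on the minus strand. Some of these genes carry the letters of the iron responsive element, the hairpin bound by iron regulatory proteins. These letters, CNNNNNCAGTGN on the transcribed strand, were searched in 1 transcript per gene. They occur once in the last 250 bases of the 5′ UTR of Fth1, Ftl1 and Slc40a1, where 6.31% of 20432 5′ UTRs hold them. In the 3′ UTR of Tfrc they occur 5 times, where 33.3% of 20773 3′ UTRs hold them at least once and 0.703% at least 5 times. Single matches stand in the 3′ UTR of Fth1 and of Slc11a1, and Hmox1, Trf, Hebp1 and Blvrb have none. A match is a description and not a measured site.

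The windows are shown because the letters of the element stand in them. Only letters were searched, and whether the bases beside them pair into a hairpin was not tested. Capitals mark the motif, and each window is read 5′ to 3′ on its gene's strand, at chr19:9982729-9982758 (plus) for Fth1, chr7:45459781-45459810 (minus) for Ftl1, chr1:45925467-45925496 (minus) for Slc40a1, and chr16:32631216-32631245, chr16:32631595-32631624, chr16:32631642-32631671, chr16:32631660-32631689 and chr16:32631707-32631736 (plus) for the 5 of Tfrc in order.
Fth1 5′ UTR: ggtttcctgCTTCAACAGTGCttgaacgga
Ftl1 5′ UTR: tgtgtcttgCTTCAACAGTGTttgaacgga
Slc40a1 5′ UTR: ttccaacttCAGCTACAGTGTtagctaagt
Tfrc 3′ UTR: gataattatCGGAAGCAGTGCcttccataa
Tfrc 3′ UTR: tcacattatCGGGAGCAGTGTcttccataa
Tfrc 3′ UTR: agtttttgcCTACCACAGTGTctatatcgg
Tfrc 3′ UTR: tgtctatatCGGAGACAGTGAtctccatat
Tfrc 3′ UTR: cgtaattatCGGGAACAGTGTttcccataa

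RefSeq promoters (250 bases before to 50 after the start, GRCm38.p6) were found for 6 of the 9 genes, not for Hmox1, Slc40a1 and Trf, with 9 promoters in all. The core letters of the antioxidant response element, TGACNNNGC or on the other strand GCNNNGTCA, stand in 0 of these 9 windows and in 12.4% of 32851 promoters. No match says only that these letters are not in these windows.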

How the data were processed

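The authors made the deposited counts with Cell Ranger 1.3 on mm10, and per the deposited tables each value is a raw UMI count of a gene in a cell. Libraries were assigned to groups by sample titles and column names. Of the 8 label entries of the CD11b+ shSELP library, 7 have a description line that names the negative control, and all 8 give the knockdown as genotype. Of the columns of values 0 were left unused, and 5 of 9167 barcodes in the mix and 3 of 5721 in the CD11b+ table occur in more than 1 library. Cells under 500 genes or over 10% mitochondrial UMIs were dropped, which kept 8726 of 9172 in the mix and 5535 of 5724 CD11b+ cells. A class needed 3 of its markers and a lead of 0.1 in the share of markers detected over 16 marker lists. A macrophage state needed 3 and a lead of 0.2 over 6 lists, the proliferating state 2 cell cycle markers, and each state held at least 10 cells per library. The state markers were Nos2, Inhba, Il1a, Ptgs2 and Cxcl3 for the inflammatory state, Ly6c2, Ccr2, Plac8, Vcan and Chil3 for monocytes, Dnase1l3, Ms4a7, Cd72, C1qa and C1qc for the Ms4a7 state, Gpnmb, Spp1, Fabp5, Trem2 and Cd36 for the Gpnmb state, and Mki67, Top2a, Birc5, Cdk1 and Pclaf for proliferating cells. A further state that was part of the fits, and some marker and similar genes, are not reported here. The members, markers and lists were chosen with earlier results of these data known.

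UMIs were summed per library and class and tested with edgeR 4.0.16 (quasi-likelihood F test, TMM scaling, filterByExpr at a minimum count of 10, Benjamini-Hochberg over all genes tested, threshold 0.05), with the library as a block where classes or states were compared. The SE is the log2 difference over the square root of F. With 2 libraries against 2, the smallest exact permutation p is 0.333. CD11b+ ratios carry exact 95% intervals for counts. All 9 members are named, the list genes past the threshold in macrophages or microglia (at most 6 per direction and class), and the 3 genes with the highest r per member. Alternatives were DESeq2 1.42.0, no filter on low counts, total UMI scaling, a gate with 1 more marker, classes from Seurat 5.3.0 clusters (resolution 0.8, 2000 variable genes, 12 components), Scrublet calls (scanpy 1.11.5) left out, cells thinned to 2000 UMIs, all deposited cells, each library left out, and the replicate number as a block. For shSELP against shNC in macrophages, leaving out the proliferating macrophages was a further alternative. Scrublet called 76 cells (0.871%) of the mix and 1 CD11b+ cell (0.0181%), too few for its calls to be used in the latter. Python 3.11.15, R 4.3.3, scipy 1.17.1 and matplotlib 3.10.9 were used.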

Additional observations from a re-analysis of the deposited data

Results flagged for a closer look

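The shSELP minus shNC difference of Fth1 differed between microglia and macrophages of the mix by a log2 value of -0.7117 (SE 0.14, adjusted p = 0.0387, range over alternatives 1.3e-10 to 0.161). It stands here because a test of the difference itself passed, with Fth1 higher in macrophages of 2 of 2 shSELP libraries and lower in microglia of 2 of 2. Leaving out shNC library 1 gave -0.67 (adjusted p = 0.161) and leaving out shSELP library 2 gave -0.58 (adjusted p = 0.142).

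For Hmox1 the shSELP library lay below the shNC library in CD11b+ cells, which was not so in the mix. The ratio of the shSELP to the shNC library of CD11b+ cells was 0.6401 in macrophages and 0.4168 in microglia, whereas the differences in the mix were above 0. In macrophages of the mix, shNC 1 (250.2 CPM) and shSELP 2 (252 CPM) were alike within counting error. The mix differences did not pass, at 0.33 in macrophages (adjusted p = 0.388) and 0.38 in microglia (adjusted p = 0.165), and were as low as 0.01 and 0.09 under alternatives. The difference between experiments was not tested, the CD11b+ experiment has 1 library per group, and the experiments differ in sorting and, by the labels, in day. The direction of the CD11b+ ratios follows the sample titles, the genotype in the labels and the column names, which all name the same group, while a description line in 7 of 8 label entries of the shSELP library names the negative control.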

How the results depend on the processing

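The numbers of the 9 genes past the threshold in the class and state comparisons stayed within 1.5 times their value under each alternative run, at 22 to 29 for classes (28 as reported) and 10 to 19 for states (13 as reported), and so did the CD11b+ counts past 1.5-fold in macrophages. Between shSELP and shNC the counts were 0 or 1 and moved more. With no filter on low counts they were 1 in macrophages, 2 in tumor cells and 3 in endothelial cells, against 0, 0 and 1. The share of all genes past the threshold with no filter is not given here, so these counts cannot be set against it. The count in microglia, 1 as reported, was 0 with DESeq2, 0 with classes from clusters, 0 in thinned cells, where Slc40a1 was not tested, and 0 without cells that held an endothelial marker. In endothelial cells it was 0 with classes from clusters and 0 without cells that held a myeloid marker. For the interaction, 1 as reported, it was 0 with total UMI scaling, 0 without doublet calls, 0 without microglia that held an endothelial marker and 2 with classes from clusters. The alternatives that leave out cells with markers of another class were chosen after seeing the data. In each of these the cause was not tested.

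Leaving out 1 library at a time left a lone library in a group, which was then assumed to vary like those of the other group. Calls between shSELP and shNC were gained or lost in macrophages, microglia, tumor cells, endothelial cells and the interaction, and oligodendrocytes had none. The share of all genes called in these fits is not given here, so the counts are left out. The difference of Hebp1 between oligodendrocytes and macrophages, -0.13 as reported, was 0.8666 with total UMI scaling, and the cause was not tested.

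Labels of both groups number their libraries 1 and 2, and nothing states that equal numbers share anything. Deviations of same-numbered libraries correlated at -0.131 in macrophages (9605 genes) and 0.118 in microglia (7406 genes). With the replicate block the count was 1 in macrophages (Hebp1), 1 in microglia, 0 in tumor cells, 0 in oligodendrocytes and 1 in endothelial cells, and it changed no other count. With the numbers crossed, an alternative added after seeing the data, the paired counts were 0, 1, 1, 0 and 1.

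Of the values for single genes between groups, 426 of 498 kept direction and side of the threshold, 53 below the threshold changed sign, 14 passed newly and 5 no longer passed. For classes 392 of 419 kept both, for states 343 of 380 and for the interaction 88 of 116. Clusters gave no oligodendrocytes, so that class has no value there, and states were not run with clusters or with the replicate block. Depth limits Slc40a1 and Tfrc in myeloid cells, and the sums of 5 to 25 oligodendrocytes and of 22 and 33 shNC endothelial cells limit those classes. With 2 libraries per group, which may share animals, and 1 CD11b+ library per group, spread between mice is not measured. RNA level says nothing here of protein, iron or heme, and RNA of other cells in a droplet was not removed.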
